A study of Mus musculus with 2 samples.

Results

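Accessible stretches of 1 kb or more are the widest continuous runs of open chromatin in mouse testis, and 3243 of them were shared by both DNase-seq libraries of the series. They were chosen on the deposited track that gives, along the genome, a false discovery rate (FDR) for the rate of DNase I cuts. Bases with an FDR below 0.001 were kept, touching runs were merged into stretches, and a stretch of 1000 bp or more in replicate 1 was a member where it overlapped one of 1000 bp or more in replicate 2. Members are called broad stretches, and their width is that in replicate 1 unless stated. Replicate 1 held 98155 stretches of any width and replicate 2 held 111343, of which 3710 and 3769 were 1000 bp or wider. Broad stretches were thus 3.30% of the stretches of replicate 1 and, with 4.58 Mb, 23.1% of their bases.

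The study profiled whole testis from male B6CASTF1/J mice, an F1 hybrid of C57BL/6J and CAST/EiJ, at 14 days of age, with no treatment, mutation or other age to compare. Its 2 libraries are biological replicates of 1 group. For replicate 1 the label names 3 males, for replicate 2 it gives no number, and 1 donor label is on both, so part of their spread may be technical. With 1 group of 2 libraries no test between groups was possible, and the values below are descriptions with their spread. The number of reads per library is not known from the files, and the files do not separate the 2 parental alleles.

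DNase I cuts DNA that is not wrapped tightly in nucleosomes or covered by proteins, so runs with many cuts mark promoters, enhancers and insulators. A footprint is a short gap in the cuts within such a run, where a bound protein shields the DNA. Many promoters of mammals lie in CpG islands, which are rich in the dinucleotide CpG, stay free of DNA methylation and are kept open in most cell types by factors that bind GC-rich letters. In the juvenile testis the first spermatocytes have entered meiosis alongside spermatogonia, Sertoli cells and interstitial cells. In such a mixture, fewer open cells of a type and less opening per cell cannot be told apart.

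The sequences below show what lies under the strongest usable peak of 7 broad stretches on which the results turn. They include some of the widest members (Ptma, Ppp2r3d, Crlf2 and Csf2ra), the imprinted Peg3, a strong member far from any annotated start, and a repeated stretch inside Mid1. Each is a window of 200 bp on the plus strand of GRCm38 (mm10), read from the RefSeq GRCm38.p6 genome, which is that of C57BL/6J. The window was placed on the highest peak of replicate 1 in the stretch that left it clear of annotated untranslated regions. Capitals mark bases inside footprints of both libraries.
Ptma, chr1:86525291-86525490: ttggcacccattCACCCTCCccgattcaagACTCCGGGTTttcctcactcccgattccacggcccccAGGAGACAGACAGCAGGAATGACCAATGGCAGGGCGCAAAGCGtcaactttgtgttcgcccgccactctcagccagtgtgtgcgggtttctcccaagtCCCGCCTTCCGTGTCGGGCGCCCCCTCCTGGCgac
Ppp2r3d, chr9:124424621-124424820: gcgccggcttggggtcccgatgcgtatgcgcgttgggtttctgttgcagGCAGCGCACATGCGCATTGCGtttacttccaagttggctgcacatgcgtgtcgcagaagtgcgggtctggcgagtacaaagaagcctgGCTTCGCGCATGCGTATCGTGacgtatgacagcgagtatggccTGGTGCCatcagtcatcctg
Crlf2, chr5:109557411-109557610: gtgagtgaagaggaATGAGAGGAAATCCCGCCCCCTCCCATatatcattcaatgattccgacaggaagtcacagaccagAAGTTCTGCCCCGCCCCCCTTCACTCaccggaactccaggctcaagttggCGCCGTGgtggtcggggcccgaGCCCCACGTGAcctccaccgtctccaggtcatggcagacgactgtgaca
Csf2ra, chr19:61226001-61226200: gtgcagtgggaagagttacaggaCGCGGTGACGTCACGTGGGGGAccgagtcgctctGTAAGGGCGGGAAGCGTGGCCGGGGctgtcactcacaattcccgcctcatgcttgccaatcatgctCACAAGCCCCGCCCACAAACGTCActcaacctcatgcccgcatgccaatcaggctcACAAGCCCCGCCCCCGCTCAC
Peg3, chr7:6729491-6729690: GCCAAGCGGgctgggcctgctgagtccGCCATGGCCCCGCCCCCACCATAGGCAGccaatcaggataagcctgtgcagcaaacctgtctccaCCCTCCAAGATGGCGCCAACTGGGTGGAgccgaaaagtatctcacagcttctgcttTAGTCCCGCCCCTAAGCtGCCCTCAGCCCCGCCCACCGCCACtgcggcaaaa
Zfp395 nearest, chr14:65343831-65344030: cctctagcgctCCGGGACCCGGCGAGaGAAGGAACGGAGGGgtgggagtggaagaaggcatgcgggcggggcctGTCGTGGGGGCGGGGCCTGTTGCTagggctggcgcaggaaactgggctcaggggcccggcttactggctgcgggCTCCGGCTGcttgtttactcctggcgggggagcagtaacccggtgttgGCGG
Mid1, chrX:169998001-169998200: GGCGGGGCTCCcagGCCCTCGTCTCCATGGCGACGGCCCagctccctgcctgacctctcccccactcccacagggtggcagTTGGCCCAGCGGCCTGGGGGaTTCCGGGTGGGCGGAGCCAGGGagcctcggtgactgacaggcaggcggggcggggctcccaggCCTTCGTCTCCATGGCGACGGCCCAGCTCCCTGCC

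The windows were 59.0% to 74.5% G and C and held 9 to 19 CpG each, the most at Ppp2r3d and the fewest at Peg3. The Ptma window, centred 1335 bp upstream of the nearest start of Ptma, held 1 match to CCAAT and 1 to core letters of the insulator protein CTCF, both wholly in capitals. The Peg3 window, centred 828 bp into the gene, held 1 match to letters bound by YY1, and 3 to the GC box GGGCGG, all in capitals. The Csf2ra window lay wholly in exon sequence, 582 bp downstream of a start, and held 1 match to TGACGTCA, the cyclic AMP response element (CRE). In the Mid1 window an identical run of 32 bp stood at 2 places. A match was counted on either strand and is a run of letters, not a shown binding site.

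Whether the tissue was testis was checked by promoter peaks, counting a gene as open where both libraries had a peak within 1000 bp of an annotated start. Of 21911 protein-coding genes, 15059 (68.7%) were open. Open genes made up 29 of 30 genes of meiotic prophase, 20 of 23 of spermatogonia, 19 of 20 of Sertoli cells and 15 of 17 of Leydig and peritubular myoid cells. Other sources were open less widely, at 7 of 16 endothelial and leukocyte genes, 3 of 12 liver genes and 2 of 8 epididymis genes, but 10 of 12 brain genes were open too. None of the genes of these last lists had a start in a broad stretch. Replicate 1 had 101172 listed peaks and 269247 footprints, and replicate 2 had 117359 and 349555.

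Widths were alike in the libraries for most members. Replicate 1 had a median of 1306 bp and replicate 2 of 1316 bp, with a mean of 1311 ± 7.1 bp (SD, n = 2). The middle 80% of members spanned 1060 to 1903 bp in replicate 1 and 1065 to 1909 bp in replicate 2. Widths beyond the first kilobase thinned out fast. In replicate 1, 963 members (29.7%) reached 1500 bp, 251 (7.74%) reached 2000 bp and 18 reached 3000 bp, of which 818, 199 and 15 did so in both libraries. The width in replicate 2 lay within 10% of that in replicate 1 for 2694 members (83.1%), and 71 (2.19%) were apart by 1.5-fold or more, 35 of them wider in replicate 2 and 36 wider in replicate 1. Across the 3243 members Spearman's rho between the libraries was 0.853 for width, 0.968 for the highest peak value and 0.721 for the number of footprints. These describe regions that share both libraries and were chosen on both.

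**Figure D1:**
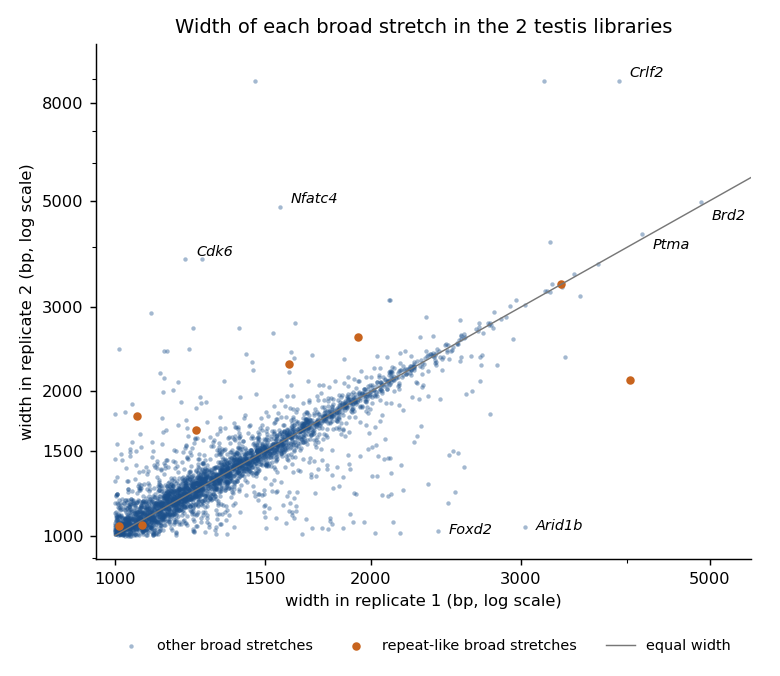
Width of each broad stretch in replicate 1 (horizontal, bp, log scale) and of the widest stretch of replicate 2 it overlaps (vertical, bp, log scale), with 1 point per member, repeat-like members in orange and a line of equal width. Most of the 3243 points lie on the line, and the 3 points at 8906 bp are neighbours at Crlf2 that replicate 2 joins into 1 stretch.

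The 1000 bp limit splits a continuous range. The narrowest members were Cdca4 (1000 bp in replicate 1 and 1008 bp in replicate 2), Hist1h1a (1000 and 1302 bp) and Tent2 (1000 and 1021 bp). Just outside, 1 bp short of the limit in replicate 1, were Dpf3 (804 bp in replicate 2), Sema5a with Snhg18 (998 bp) and E2f1 (1487 bp). The highest peaks of Dpf3, at 15.2 and 13.5 in the libraries, and of E2f1, at 10.1 and 10.1, lay inside the range of the members. A further 467 stretches were 1000 bp or wider in replicate 1 alone, with a median of 1097 bp there and 869 bp in replicate 2, where 428 still spanned 500 bp or more and 1 had no stretch. Replicate 2 had 528 of its own.

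Broad stretches lay at gene starts. An annotated transcript start of any gene type (GENCODE M21) fell inside 3145 of the 3243 (97.0%), against 81.7% of shared stretches of 500 bp to under 1 kb and 20.1% of the 68647 shared stretches of all widths. Starts of protein-coding genes lay in 3085 (95.1%), and 60 members held only starts of other types. A wider run has more room for a start, and this was not corrected for. Within the members the share barely moved with width, at 96.6% of those of 1000 to 1249 bp and 97.2% of those of 2000 bp or more. Seen from the genes, 3607 of the 21911 protein-coding symbols (16.5%) had a start in a broad stretch, a number equal to 24.0% of the open ones. Of long noncoding RNA genes 493 of 10155 (4.85%) had one, of miRNA genes 59 of 2202 (2.68%) and of pseudogenes 28 of 13523 (0.207%).

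Many members served more than 1 gene. In 546 (16.8%) at least 2 protein-coding genes had a start, against 7.93% of shared stretches of 500 bp to under 1 kb, and 20 held 3. Protein-coding starts on both strands, the layout of a divergent or overlapping promoter, occurred in 521 members (16.1%), against 6.88% of the narrower class. The share was 15.7% among members of 1000 to 1249 bp and 17.1% among those of 2000 bp or more. Examples named by the lists below are Brd2 with H2-DMa, Catsper2 with Pdia3, and Hist1h2aa with Hist1h2ba. For such members the data give 1 stretch and do not assign it to either gene.

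The sequence of the members was that of CpG islands, a property the choice did not use. CpG observed over expected is the number of CpG times the length, over the product of the numbers of C and of G, and is near 1 where CpG is not depleted. Its median was 0.821 in broad stretches, 0.754 in shared stretches of 500 bp to under 1 kb and 0.278 in those under 500 bp. The middle 80% ran from 0.677 to 0.952 in broad stretches and from 0.443 to 0.924 in the 500 bp to 1 kb class, so the classes overlapped at the upper end and parted at the lower. Only 104 broad stretches (3.21%) fell under 0.6, against 20.1% and 64.8% of the narrower classes. In a central window of 300 bp for every class the medians were 0.929, 0.829 and 0.312. Stretches under 500 bp had a median width of 147 bp, so their window often took in bases outside the stretch. Median G and C content was 65.0% in broad stretches, 62.2% in stretches of 500 bp to under 1 kb and 53.0% in those under 500 bp.

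**Figure D2:**
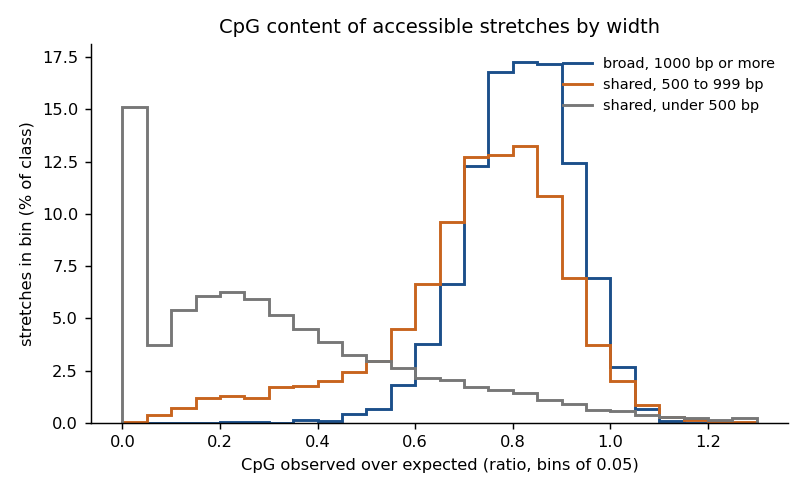
CpG observed over expected (horizontal, ratio, bins of 0.05) against the share of each class per bin (vertical, %) for broad stretches, shared stretches of 500 bp to under 1 kb and shared stretches under 500 bp. Broad stretches form a single hump around their median of 0.821 with 3.21% under 0.6, the 500 bp to 1 kb class has a longer lower tail, and the narrow class lies mostly low.

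Accessibility reached farther downstream of the annotated 5′ end of the gene than upstream of it. That end is the most upstream annotated start, so other starts of the same gene can lie only downstream. A transcript start lay in 97.0% of all members and the 5′ end of a gene in 88.1%. The part of other starts in this difference and in the peak zones below was not tested. Around 2189 members that held the annotated 5′ end of a single protein-coding gene, the stretch ran a median of 824 bp downstream of that end (10th to 90th percentile, 544 to 1259 bp) and 492 bp upstream (245 to 879 bp). The downstream side was the longer in 1745 of them (79.7%). Within the stretch the peaks formed 2 zones with a gap. Peaks covered 80.5% and 79.7% of bases in the 2 libraries over the 100 bp just upstream of the 5′ end, 28.0% and 28.3% from 100 to 199 bp downstream, and 41.7% and 46.4% from 500 to 599 bp downstream. Footprints followed the first zone, with 1.93 and 1.95 centres per 100 bp just upstream of the end and a steady decline on both sides. CpG lay farther downstream, rising to 11.8 per 100 bp at 200 to 299 bp after the 5′ end, with 4.01 at 401 to 500 bp before it and 8.66 at 500 to 599 bp after it.

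**Figure D3:**
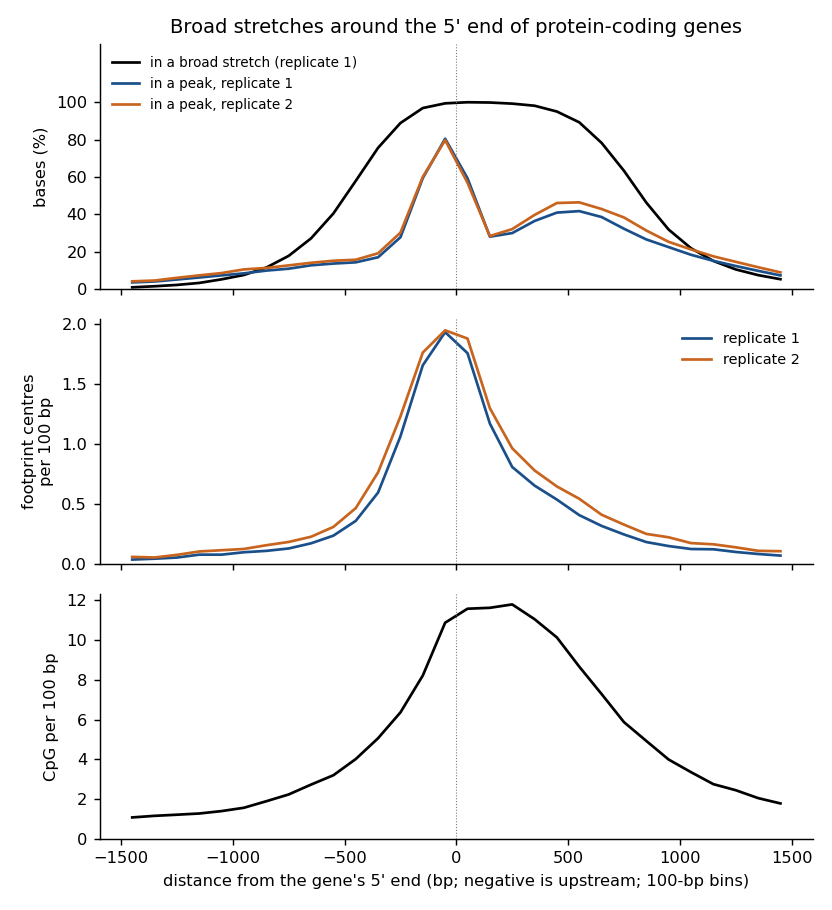
Bases in a broad stretch or in a peak (top, %), footprint centres per 100 bp (middle) and CpG per 100 bp (bottom) in bins of 100 bp around the 5′ end of the gene (horizontal, bp, negative is upstream) for 2189 members with 1 protein-coding gene. Peak cover is highest just upstream, dips at 100 to 199 bp and rises again to 41.7% and 46.4% at 500 to 599 bp, while stretch cover near 100% at the 5′ end is set by the choice of members.

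Peaks and footprints come from the same alignments as the track that chose the members, so their values are descriptions. Broad stretches held the tall peaks: of the 1000 highest peaks of each library, 699 in replicate 1 and 697 in replicate 2 touched a member, while 6.80% and 6.24% of all peaks did. The highest peak in a member had a median value of 9.01 in replicate 1 and 8.49 in replicate 2, on average 8.75 ± 0.37 (SD, n = 2), against 4.16 ± 0.24 in shared stretches of 500 bp to under 1 kb and 0.634 ± 0.038 in those under 500 bp. A peak value is the authors' signal, scaled per library in a way not given in the sources used here. Members ranged from 0.446 to 30.2 in replicate 1 and from 0.438 to 41.1 in replicate 2, with Klf8, on the X chromosome, lowest in both at 0.446 and 0.438. Width and peak height were nearly unrelated among members, with a rho of 0.0972 over the 3243. The highest peak differed by 1.5-fold or more between the libraries in 104 members (3.21%), against 10.4% of all shared stretches, and was the higher in replicate 2 in 8 of them.

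Most broad stretches were touched by more than 1 listed peak, and some listed peaks overlap each other. At least 2 peaks touched 2420 members (74.6%) in replicate 1 and 2572 (79.3%) in replicate 2, up to 9 and 8, and no peak in either library was wider than 1740 bp. Peak bases, summed over listed peaks so that overlapping ones count more than once, came to 44.6% and 47.1% of the bases of the members (mean 45.8 ± 1.7). Summed in the same way they came to 45.9 ± 0.63% in the 500 bp to 1 kb class and 79.3 ± 0.39% in stretches under 500 bp. Footprints numbered 12 and 14 in the median member and 41241 and 47413 in all, 15.3% and 13.6% of those listed. Their median density was slightly lower than in the 500 bp to 1 kb class in each library, at 8.88 against 9.67 per kb in replicate 1 and 10.2 against 10.9 per kb in replicate 2. Members of 1000 to 1249 bp held 11 ± 1.4 footprints and 2 peaks and those of 2000 bp or more 22 ± 2.8 footprints and 4 peaks, at 9.82 ± 1.1 and 9.57 ± 1.1 footprints per kb. From the narrower to the wider of these bins CpG observed over expected was 0.807 and 0.839, and the highest peak 8.33 ± 0.44 and 9.56 ± 0.86.

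The widest member in replicate 1, on chromosome 17 (34118127 to 34123014), held the starts of Brd2, a bromodomain protein that binds acetylated histones, and H2-DMa, which helps load peptides on MHC class II. It was 4888 bp in replicate 1 and 4967 bp in replicate 2, with highest peaks of 16.7 and 13.9 and with 58 and 57 footprints. Ptma, for the acidic nuclear protein prothymosin alpha, was 4162 and 4261 bp wide (chromosome 1, 86524725 to 86528886), with peaks of 18.2 and 18.7 and 41 and 42 footprints. Broad stretches covered 54.2% of Ptma, which is 3987 bp long, and 42.5% of Brd2, which is 10612 bp long. Nsd1, a histone H3 lysine 36 methyltransferase, was 3517 and 3172 bp wide on chromosome 13, but its highest peaks reached only 5.68 and 5.89. Nsd1 is 108544 bp long, and the stretch took 3.06% of it.

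The widest member by the mean of both libraries was that of Crlf2, which encodes a subunit of the receptor for thymic stromal lymphopoietin. It was 3913 bp wide in replicate 1 (chromosome 5, 109555288 to 109559200), with peaks of 10.2 and 11.9 and 50 and 61 footprints. In replicate 2 it was joined to 2 neighbours into a stretch of 8906 bp, the widest of any member. Those neighbours, 3199 and 1460 bp wide in replicate 1, lay at the start of and inside the predicted gene Gm8493. Their peaks were lower, at 4.54 and 2.55 in replicate 1, and so was their CpG observed over expected, at 0.363 and 0.424 against 0.681 at Crlf2. Csf2ra, the alpha chain of the receptor for granulocyte-macrophage colony-stimulating factor, was 3250 and 4096 bp wide (chromosome 19, 61224628 to 61227877), with peaks of 10.6 and 12.3. It lay 204 kb from the end of its chromosome. Il3ra, the alpha chain of the interleukin 3 receptor on chromosome 14, was 3248 and 3227 bp wide with peaks of 4.57 and 4.35. The Csf2ra member held 7 matches to the CRE letters TGACGTCA and 6 to the ETS letters CCGGAAG, each the highest number in any broad stretch.

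**Figure D4:**
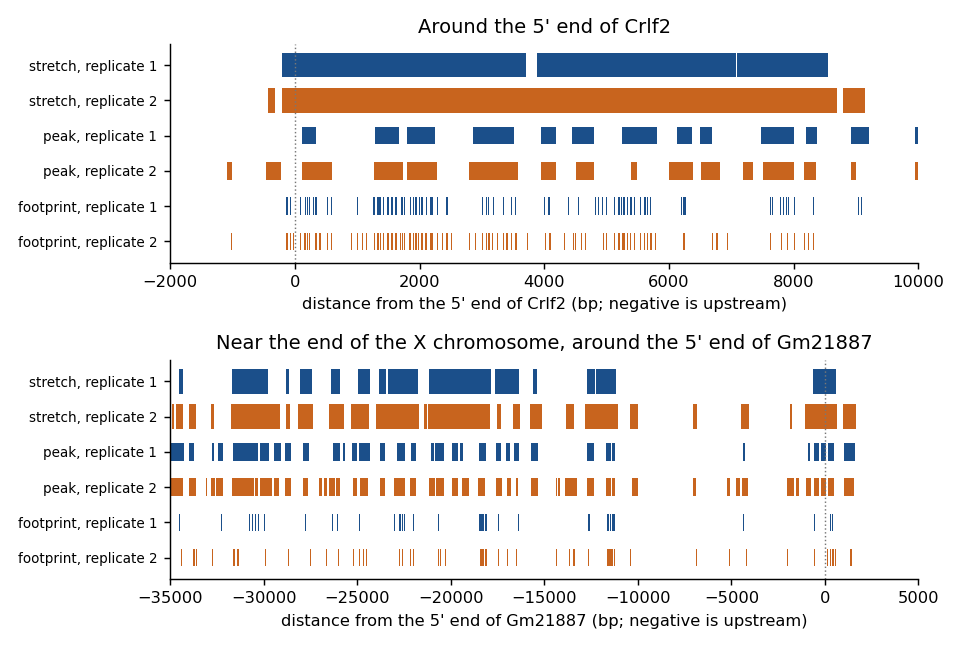
Stretches of 100 bp or more, peaks and footprints of both libraries around the 5′ end of Crlf2 (top) and toward the end of the X chromosome around the 5′ end of Gm21887 (bottom), with distance from that 5′ end in bp on the horizontal axis and negative values upstream. At Crlf2 replicate 2 has 1 stretch of 8906 bp where replicate 1 has 3, and at the X end stretches of both libraries follow each other, and the 5 members there lie within 32.3 kb.

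Crlf2 was open along nearly its whole body. The gene is 4285 bp long and 95.9% of it lay in broad stretches, and Csf2ra, at 4473 bp, was covered to 72.7%. Over the 3609 protein-coding genes with a start in a member, the median length was 36.6 kb and the median share of the body inside broad stretches 2.23%. Only 28 of them were inside to 80% or more, 6 of which have histone symbols, and Crlf2 was the only one of the 28 longer than 2500 bp. Jun, a gene of a single exon, reached 60.6%.

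Other wide members had varied roles. Ppp2r3d, for a regulatory subunit of protein phosphatase 2A, was 3694 and 3684 bp wide on chromosome 9 (124422466 to 124426159), with 64 and 60 footprints. A second member in the same gene was 2239 and 2258 bp wide, with peaks of 4.18 and 4.96 against 13.9 and 14.9 at the first, and a CpG ratio of 0.389 against 0.863. Peg3, an imprinted gene for a zinc finger protein that is expressed from the paternal copy, shared a member with Usp29 on chromosome 7 (6727244 to 6730712). It was 3469 and 3517 bp wide, with peaks of 15.5 and 17.2 and 35 and 46 footprints. Its CpG ratio of 0.457 was low among broad stretches, and it held 7 matches to the YY1 letters, more than any other member. That motif was looked for after Peg3 was seen among the widest, and in the central 300 bp it was in 0.740% of broad stretches and 0.233% of all shared stretches.

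The members with the tallest peaks varied in width, from 1040 bp at Snrnp70 to 2758 bp at Ing2 in replicate 1. Dnpep, an aminopeptidase on chromosome 1, had the highest mean of both libraries, with 28.2 and 37.7, in a stretch of 1540 and 1632 bp. Rragc, a Rag GTPase that links amino acids to mTORC1, reached 30.2 and 29.5, the highest in replicate 1. Eif5a, a translation factor, had 28.3 and 29.8, Mplkip with Sugct 28.5 and 29.3, and Ing2, a reader of histone H3 lysine 4 methylation, 26.9 and 27.5. Snrnp70, of the U1 spliceosomal particle, had 25.6 and 30.6, and Rab11b, a GTPase of recycling endosomes, 24.3 and 30.1. Each gene named so far in this paragraph with its peaks lay well above the median of 8.75 ± 0.37 in both libraries. Among the tallest by mean, the least alike was Gm21887 on the X chromosome, with 21.7 and 41.1, followed by Dnpep. Ankhd1 had 26.3 and 33.4, and a member inside Mid1 had 26.2 and 32.4.

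Of 30 matched genes of meiotic prophase, among them genes of the synaptonemal complex and recombination, 8 (26.7%) had a start in a broad stretch. The share of all protein-coding genes was 16.5%. Set against the open genes alone, the numbers were closer, equal to 27.6% for this list and 24.0% for all protein-coding genes. Meioc, needed to stay in meiotic prophase, was 1420 and 1428 bp wide with peaks of 12.1 and 12.7. The synaptonemal complex genes Sycp3, Sycp2 and Sycp1 were open over 1428, 1112 and 1140 bp in replicate 1 and 1399, 1134 and 1079 bp in replicate 2. Dmc1, the meiotic recombinase, was 1069 and 1073 bp wide with peaks of 6.85 and 5.63. Meiob and Syce2 were members as well. Of the matched genes with no start in a member, all but 1 were open.

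Of 23 spermatogonial genes 6 (26.1%) were in broad stretches, beside 16.5% of all protein-coding genes. Set against the open genes alone, the numbers equal 30% for this list and 24.0% for all protein-coding genes. Foxo1, a transcription factor of spermatogonial stem cells, was the widest at 2680 and 2781 bp, with modest peaks of 5.58 and 3.64. Etv5, which acts downstream of GDNF, was narrower at 1043 and 1492 bp but had peaks of 17.8 and 20.3. Dazl, a germ cell RNA-binding protein, had 1655 and 1588 bp with peaks of 10.1 and 10.7, and Taf4b, a germ cell TFIID subunit, 1221 and 1248 bp with peaks of 15.9 and 15.9. Zbtb16, a repressor of differentiation, was at the low end with 1021 and 1042 bp and peaks of 2.38 and 2.06. Dmrt1, at 1059 and 1005 bp, is also in the Sertoli cell list, where it and Kitl, the ligand of the Kit receptor, were 2 of 20. Kitl had peaks of 2.01 and 1.87. None of 17 Leydig and peritubular myoid genes was a member, although 15 were open. With lists this short the shares are loosely fixed.

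Of 22 genes used later, in pachytene spermatocytes and spermatids, 8 (36.4%) had a start in a broad stretch, while 12 (54.5%) were open. Over all protein-coding genes these shares were 16.5% and 68.7%. Hspa2, a heat shock protein of spermatocytes, was 2470 and 2337 bp wide with peaks of 16.4 and 19.4. Odf2, of sperm outer dense fibres and of centrioles, had 1750 and 1859 bp and peaks of 23.1 and 19.7. Mybl1, the transcription factor that switches on pachytene genes, had 1804 and 1670 bp and peaks of 4.33 and 3.57. Crem, a CRE-binding regulator of spermatid genes, had 1581 and 1605 bp and peaks of 8.76 and 7.43. Some shared their stretch with starts of other protein-coding genes: Tssk6 with Yjefn3 and with Ndufa13, a subunit of respiratory complex I, Catsper2 with Pdia3, a protein-folding enzyme, and Zpbp with Spata48. Tbpl1 completes the list, and with so few genes the shares are loosely fixed.

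Immediate early and stress response genes are induced within minutes in many cells and include short genes of signalling and transcription. Of 49 matched genes, all open, 18 (36.7%) were in broad stretches. Of all protein-coding genes 16.5% were, a number equal to 24.0% of the open ones. Jun, a subunit of AP-1, was 3357 and 3301 bp wide on chromosome 4 (95050292 to 95053648), with peaks of 9.45 and 11.0 and 18 and 23 footprints. Klf10, a factor induced by TGF-beta, had 3221 and 3249 bp and peaks of 16.1 and 15.0, and Tob1, an antiproliferative protein, 2376 and 2291 bp and peaks of 16.03 and 18.5. Other members were less alike in the libraries. Egr1 was 1131 bp wide in replicate 1 and 2184 bp in replicate 2, and Fosl2 1259 and 1949 bp. Myc, Klf4, Dusp1, Cebpd, Hes1, Btg1, Mcl1, Nfkbia, Gadd45a, Rhob, Sik1, Zfp36l2 and Ier5 were the rest. The median width over the 18 was 1411 ± 69 bp (SD, n = 2), beside 1317 ± 4.9 bp over all protein-coding genes with a start in a member.

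Of the lists in the plot of gene lists, that of genes active in most cells had the largest share of members. Of 20 ubiquitous genes, all open, 13 (65.0%) were members, beside 16.5% of all protein-coding genes. They were led by Ywhaz, a 14-3-3 protein, at 2425 and 2341 bp and Hspa8, a chaperone, at 2102 and 2195 bp with peaks of 20.2 and 20.3. Npm1, of the nucleolus, had 1449 and 1615 bp and peaks of 23.2 and 23.4. Ribosomal proteins are made in all cells, and the symbol rule for their genes took 92 genes and 21 members (22.8%), but 5 of these are Rps6k kinases, and without the kinases 16 of 82 (19.5%) were members while 80 were open. The median width of those 16 was 1122 ± 21 bp. Among histone genes 12 of 82 (14.6%) were members, such as H1fx at 2113 and 2095 bp and H2afx, the variant marked at DNA breaks, at 1695 and 1683 bp with peaks of 15.7 and 19.9. The testis histones Hist1h2aa and Hist1h2ba shared a stretch of 1911 and 1936 bp with peaks of 4.21 and 4.68. Set against open genes, the numbers equal 65.0% for ubiquitous, 20% for ribosomal without kinases, 16.7% for histone and 24.0% for all protein-coding genes.

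Transcription factor families were taken by symbol. Of 452 genes with Zfp, Zbtb or Klf symbols 94 (20.8%) were members and 410 open, among them Klf13 at 2885 and 2856 bp and Zfp827 at 2706 and 2654 bp. Of 190 genes taken by symbols of homeobox, Sox, Fox, T-box, Gata and Pax families 22 (11.6%) were members and 142 open. Over all protein-coding genes 16.5% were members. Set against the open genes, the numbers equal 22.9% for the zinc finger symbols, 15.5% for the developmental ones and 24.0% for all protein-coding genes. Foxred1, Gatad2a, Gatad2b, Paxbp1 and Paxip1 among the 22 match the symbols without belonging to the families. Pou2f1, a ubiquitous octamer factor, was open over 2530 and 2514 bp, and Sox4 had 2469 bp in replicate 1 and 1476 bp in replicate 2. Sox30, a factor of spermatid formation, was a member as well. No list was tested against the other genes, and the lists were chosen with earlier results of these data known.

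**Figure D5:**
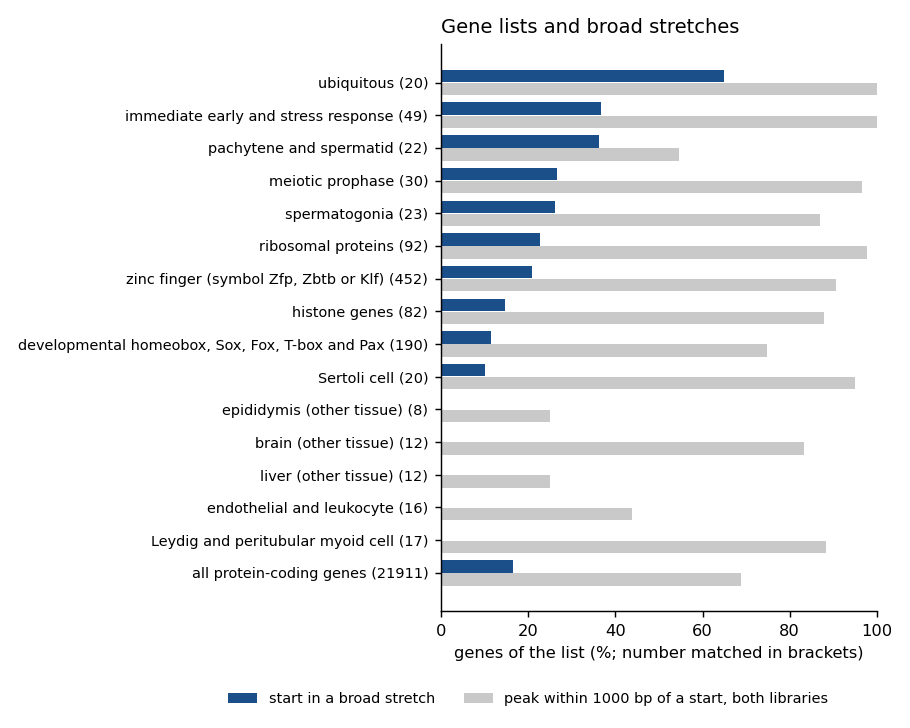
Share of the matched genes of each list (horizontal, %) with a start in a broad stretch (dark bars) and with a promoter peak in both libraries (light bars), with the number matched in brackets. The dark bar is longest for ubiquitous genes at 65.0%, is 16.5% over all 21911 protein-coding genes and is absent in 5 lists.

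A total of 98 broad stretches (3.02%) held no annotated start. Of these 47 lay between genes, 36 overlapped an exon and 15 lay in an intron. The distance to the nearest start ran from 34 to 100254 bp, with 38 within 1 kb, 40 at 1 to 10 kb and 20 beyond 10 kb. Their highest peaks were lower, with a median of 3.95 ± 0.29 against 8.94 ± 0.37 in members with a start (SD, n = 2). Their CpG observed over expected was 0.781, against 0.822. Their median footprint density was the higher in each library, at 9.55 per kb against 8.86 in replicate 1 and 11.1 against 10.2 in replicate 2. Of 2 stretches picked after their values were seen, the first lay on chromosome 14 (65343182 to 65344346), 14043 bp from the nearest start, that of Zfp395, with peaks of 20.1 and 18.9. The second, on chromosome 7 (38084698 to 38086267), lay 13102 bp from Ccne1, for cyclin E1, with peaks of 19.9 and 18.7 and the same width of 1570 bp in both libraries. The farthest from a start lay in an exon of Rims1, with peaks of 1.09 and 1.06.

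Repeat-like loci were few. A stretch was called repeat-like where at least 50% of its 31-base words occur more than once in the genome, and 8 members (0.247%) met this, against 0.789% of shared stretches of 500 bp to under 1 kb. In 2321 members (71.6%) no word was repeated, and no member held a word of the mitochondrial genome. Of the 8, 5 lay within 32.3 kb toward the end of the X chromosome (169977964 to 170010248), and they were the only members in the last 2 Mb of that chromosome. This is where Mid1, a microtubule-associated ubiquitin ligase, runs into the pseudoautosomal region that the X and the Y share. The others lay on the Y chromosome (90740919 to 90744954), at Mfsd8 with Abhd18 on chromosome 3 and at Srp54a on chromosome 12.

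At the X end, the 3 members nearest the chromosome end consisted wholly of words also found on the Y. They were 3347, 1062 and 1244 bp wide in replicate 1 and 3357, 1777 and 1660 bp in replicate 2, with highest peaks of 10.04, 26.2 and 21.7 in replicate 1 and 16.1, 32.4 and 41.1 in replicate 2. The last of them, at Gm21887, held the highest peak of any member in replicate 2. All 5 members there were wider in replicate 2. Identical copies of the sequences of the 3 stood on the Y chromosome at 90762745 to 90766091, 90771774 to 90772835 and 90783921 to 90785164, and neither library had a stretch at any of these. The last Y stretch ended at 90744954 in replicate 1 and 90744893 in replicate 2. How reads that match several places were handled was not given in the sources used here, and the signal of X and Y copies cannot be told apart. The Y member was 4036 bp in replicate 1 and 2118 bp in replicate 2, with 53.0% repeated words and peaks of 3.39 and 4.69.

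A few members differed strongly in width between the libraries. At Cdk6, a cyclin-dependent kinase of the cell cycle, 2 members of 1210 and 1265 bp in replicate 1 lay in a single stretch of 3775 bp in replicate 2. Nfatc4 was 1562 bp in replicate 1 and 4862 bp in replicate 2. In the other direction Arid1b, a subunit of the BAF remodelling complex, was 3031 bp in replicate 1 and 1044 bp in replicate 2, Foxd2 2395 and 1023 bp, and Pde8a 2162 and 1014 bp. Width counts unbroken runs, so a gap in the track in 1 library splits a stretch there.

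The central 300 bp of the members differed from the other classes in some of the letters searched, each on both strands. The GC box GGGCGG, bound by Sp and Klf factors, was in 78.5% of broad stretches, 66.4% of shared stretches of 500 bp to under 1 kb and 29.3% of all 68647 shared stretches. CGCGAGA, letters linked to HCFC1 and ZBTB33 promoters, was in 8.02%, 5.24% and 1.72%. In this window other promoter letters were less common in broad stretches than in the 500 bp to 1 kb class. CCGGAAG of ETS factors was in 11.4% of broad stretches and 18.3% of that class, CCAAT of NF-Y in 22.8% and 29.7%, and TGACGTCA in 1.57% and 2.67%. The window is set on the middle of the stretch, not on the start, and leaves out most of a broad stretch. Over the whole member ETS letters were in 37.1%, CCAAT in 70.5% and TGACGTCA in 6.63%. Whole stretches of the 500 bp to 1 kb class were not searched, so the part of the window's place in these differences was not tested. In the central window the NRF1 palindrome was near level at 1.63% and 1.83%. Letters of distal elements were less common there than in the window of all shared stretches. TGANTCA of AP-1 was in 1.85% of broad stretches against 7.68%, and the CTCF core in 0.370% against 2.30%. Over the whole member these were in 13.8% and 2.13%. Shared stretches of all widths had a median of 191 bp, so their window often took in bases outside the stretch. In the window TATAAA was in 2.04% against 7.17% (14.1% over the whole member), and the X-box of RFX factors in 0.0925% against 0.0728%. A short GC-rich word is found more often in GC-rich sequence by its letters alone, which was not corrected for.

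Members were spread over all chromosomes but unevenly. Chromosome 11 held the most per length, 2.26 per Mb, and chromosome 14 the fewest of the autosomes, 0.889 per Mb. As a share of protein-coding genes with a start in a broad stretch, chromosome 12 was highest at 27.2%. The X chromosome had 110 members, 0.643 per Mb, with 11.3% of its protein-coding genes, and the Y had 2. A male carries a single X, so X loci outside the pseudoautosomal region have a single copy in a diploid cell, and the part of copy number in these values was not tested.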

How the data were processed

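DNase-seq of testis from 14-day-old mice was deposited as 2 libraries of 1 group. Each library came with a peak list, whose signal value the authors set and scaled per library in the deposited files, and a footprint list, whose p-value column holds 0.01 in all rows of the deposited files, so only positions were used. The FDR track, deposited by the authors below 0.05, gives a q-value per run of bases of the cut rate. All are on mm10 per the labels, and per the text descriptions deposited each was made from the alignments of 1 library. The aligner, the callers, their versions, read depth and how repeated reads were placed were not given in the sources used here.

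Stretches were built as described with python 3.11.15, numpy 2.4.6 and pandas 2.3.3, overlaps counted from 1 bp, and genes came from GENCODE M21. A shared stretch is one of replicate 1 that overlaps one of replicate 2, and its class is set by its width in replicate 1. Words of 31 bases were counted over the whole genome with numba 0.67.0. The building of stretches was tested on simulated data and recovered 200 of 200 planted members. The planted members were unbroken, far apart and clear of the width limit. This checked the code and not how stretches with gaps or near the limit are handled. Values are per library, with SD over n = 2, and no test was run.

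Members, gene lists and motifs were chosen with earlier results of these data known. Named regions are the widest, the tallest, those with most footprints, the widest repeat-like and start-less ones, the extremes of the width ratio, the 6 widest per list and those at the width limit. Matches marked as chosen after values were seen, the receptor orthologues and imprinted genes fall outside that rule. Alternatives changed the FDR limit, the joining of gaps, the width, the annotation of starts, the repeat share and the libraries used. A gene and a sequence that these rules choose are not reported here.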

Additional observations from a re-analysis of the deposited data

How the results depend on the processing

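Of 120 values recomputed over 10 results under 17 alternatives, 90 stayed within 1 SD between the libraries (for counts, within 1.5-fold) and 30 moved. The number of broad stretches followed the width limit: 5232 at 800 bp and 818 at 1500 bp, with 5681 and 930 protein-coding genes, and it stayed within 1.5-fold under the other alternatives run. At 800 bp the median width was 1133 bp and the peak value 7.81. At 1500 bp the width was 1786 bp, the share with a protein-coding start 96.7%, CpG observed over expected 0.837, the summed peak bases 50.4% and the peak value 9.77. An FDR limit of 0.0001 gave a width of 1285 bp and a peak value of 9.30, and one of 0.01 gave 1332 bp, 8.07 and a CpG ratio of 0.805. Width was 1314 bp both when gaps of up to 20 bp were joined and when stretches of replicate 2 were kept. With only the 5′ end of each gene counted, 88.1% held a start and 84.3% a protein-coding one. Repeat-like members numbered 4 at 1500 bp, 2 without X, Y and scaffolds, 20 at a repeated-word share of 25% and 5 at 75%. Using each library alone gave 94.5% to 96.3% with a start, 92.5% to 94.3% with a protein-coding start, a width of 1270 to 1284 bp, a CpG ratio of 0.806 to 0.821 and a peak value of 7.93 to 8.51. The causes were not tested. No paired analysis was possible because the series has 1 group. With 2 libraries an SD is loosely fixed, and with depth unknown a gap in a stretch or a missing peak says only that none was listed.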

Other observations

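Genes whose human orthologues lie in the human pseudoautosomal regions were looked at after Crlf2 and Csf2ra were seen among the widest members. Over all protein-coding genes 68.7% were open and 16.5% had a start in a broad stretch. Of 6 matched genes of 8 listed, 5 were open and 4 had a start in a broad stretch: Crlf2, Csf2ra, Il3ra and Gtpbp6, for a GTP-binding protein. In the mouse these lie on chromosomes 5, 19, 14 and 5. Gtpbp6 was 1973 bp wide in replicate 1 and 1818 bp in replicate 2, with peaks of 7.89 and 9.40, and broad stretches covered 39.5% of its body of 4223 bp. The median width of the 4 was 3455 ± 292 bp (SD, n = 2), beside 1317 ± 4.9 bp over all protein-coding genes with a start in a member. The genes were chosen on these values, so this is a description.

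Of 19 imprinted genes listed after Peg3 was seen, 4 had a start in a broad stretch: Peg3, Impact, Inpp5f and Zrsr1. Of protein-coding genes in general 16.5% had one, so the count is near the background. Among the 15 without were Snrpn, Kcnq1ot1, Mest, Nnat and Gnas. The lowest CpG observed over expected of any broad stretch, 0.212, was on chromosome 2 (167278554 to 167279721), near Gm11473.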
